A study of Mus musculus with 31 samples.

Results

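Drd1, Drd2, Ppp1r1b, Adora2a, Rgs9 and Pde10a are genes of dopamine and adenosine signalling that are widely used as markers of the medium spiny neurons of the striatum. They were chosen by symbol, and every probe set of a mouse expression array annotated to one of the 6 symbols was taken. The members were 12 probe sets of 5 genes, out of 45101 probe sets and 18193 genes with a symbol: 2 for Drd1, 1 for Drd2, 1 for Ppp1r1b, 3 for Rgs9 and 5 for Pde10a. No probe set was listed for Adora2a in the annotation used here, so Adora2a was not analysed here.

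In the striatum, dopamine reaches 2 classes of medium spiny neuron. Neurons of the direct pathway carry the D1 receptor (Drd1), which raises cyclic AMP through a stimulatory G protein, and neurons of the indirect pathway carry the D2 receptor (Drd2), which lowers it, together with the adenosine receptor Adora2a, which raises it. Downstream, Rgs9 shortens G protein signals, the phosphodiesterase Pde10a breaks down cyclic nucleotides, and Ppp1r1b (DARPP-32), once phosphorylated by protein kinase A, inhibits protein phosphatase 1. Adora2a is also a receptor of T cells, and D2 receptors, DARPP-32 and Pde10a occur at lower levels in other parts of the nervous system.

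The study hybridised total RNA from 31 samples, all labelled as sorted mouse CD4+ T cells from spleen and lymph nodes, to 1 array each, in 10 groups. Cells came from Foxp3/EGFP bicistronic mice, whose Foxp3 locus also drives a green fluorescent reporter, or from Foxp3deltaEGFP mutants, in which the reporter marks cells with a mutant Foxp3 allele. Stimulation was with antibodies to CD3 and CD28, with TGF-beta for induction; per the labels' protocols, the induced groups were stimulated for 3 days. Ages are not given in the labels.

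The groups were IL-2 induced Foxp3-delta (2 arrays; induced mutant cells cultured for a further week in IL-2 at 100 units per ml), IL-2 induced Treg (2; the same culture of induced Treg), and induced Foxp3-delta (3; reporter-positive mutant cells after induction). Further groups were induced Treg (5; reporter-positive bicistronic cells after induction), failed induced Treg (3; reporter-negative cells of those cultures), activated natural Treg (3; reporter-positive natural cells stimulated with TGF-beta) and activated T (4; reporter-negative cells stimulated without TGF-beta). The unstimulated groups were natural Foxp3-delta (2; reporter-positive cells of heterozygous mutant females), natural Treg (4) and conventional T (3). Nothing in the labels says whether the numbered samples of 1 group are separate cultures or animals. The p-values therefore cover the spread between the samples given, which could be technical in origin.

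The values went against the labelled cell type on all 31 arrays, so the groups are called here by their labels only. Whether the deposited values belong to the labelled samples cannot be told from the files, and every comparison below is between arrays by label. Foxp3, the gene behind the sort, had a deposited intensity of 12.7 ± 2.35 (SD, n = 31), close to the 27 bacterial control probe sets, whose median was 8.54 and whose 95th percentile was 14.3. Of 10 T cell genes measured (T cell receptor chains, co-receptors and Treg markers), none lay above the 50th percentile of the probe sets of an array on average, and their median percentile was 22.5. The median percentile was 99.96 for 5 oligodendrocyte genes, 99.3 for 6 astrocyte genes and 98.95 for 8 pan-neuronal genes. Array medians ranged from 22.2 to 55.4, so overall brightness differed between arrays in the deposited values. The arrays were clustered on 3 array-wide values: the median intensity, an upper percentile of intensity and the ratio of the cre to the bioB control probe sets. This gave 3 array sets of 15, 10 and 6 arrays that cut across some label groups. They group arrays by brightness and control signal, not by the pattern over all probe sets.

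Of the receptors, Drd1 had mean levels close to the bacterial controls. Its 2 probe sets, 1455629_at and 1456051_at, had deposited intensities of 15.6 ± 3.60 and 12.9 ± 2.60 (SD, n = 31). Probe set 1455629_at ranged from 10.2 to 25.5 with a median of 15.6, at a percentile of 28.4 on average (21.2 to 36.3), and 1456051_at ranged from 8.99 to 19.5 with a median of 12.7, at a percentile of 21.996 on average (13.8 to 30.2). They passed their own array's 95th percentile of the bacterial controls on 29 and on 18 of the 31 arrays. Both probe sets lay below the array median on all 31 arrays, so neither was tested between groups.

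Drd2 was well above the controls. Its probe set 1418950_at had a deposited intensity of 118 ± 29.6 (SD, n = 31), from 35.9 on activated natural Treg array 1 to 158 on natural Treg array 2, with a median of 125. It lay between the 57.2nd and the 69.8th percentile, above the 95th percentile of the bacterial controls and above the array median on all 31 arrays. Drd1 was therefore dim, below the array median, on the same arrays on which Drd2 was detected. How much of each transcript was present cannot be read from this, since probe sets differ in how brightly they report a given amount of RNA.

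Ppp1r1b and Pde10a, the phosphatase inhibitor and the phosphodiesterase, were also detected on every array. The single Ppp1r1b probe set, 1451331_at, had an intensity of 293 ± 82.5 (SD, n = 31), from 167 to 464 with a median of 274, and lay between the 74.0th and the 82.8th percentile. For Pde10a, probe set 1458499_at averaged 145 ± 33.8 (80.7 to 200.3), 1439618_at averaged 131 ± 31.01 (50.4 to 193), and 1419389_at averaged 73.6 ± 17.5 (45.7 to 114; SD, n = 31 for each). These 3 probe sets lay above the array median on all 31 arrays. The other Pde10a probe sets, 1432490_a_at at 22.9 ± 7.33 and 1419390_at at 21.1 ± 4.50, lay below the array median on all of them.

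For Rgs9, the G protein regulator, 1 of 3 probe sets gave a clear signal. Probe set 1418691_at averaged 122 ± 30.3 (SD, n = 31), from 52.1 on activated natural Treg array 1 to 167 on failed induced Treg array 1 with a median of 133, and lay between the 63.1st and the 70.9th percentile. Probe set 1439635_at averaged 13.8 ± 2.26 and passed its array's 95th percentile of the bacterial controls on 23 of 31 arrays, and 1426033_at averaged 9.82 ± 1.38 and passed it on 1. Probe sets of 1 gene thus disagreed on whether Rgs9 and Pde10a lay above or below the array median, and the files do not say which part of a transcript each one reads.

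**Figure D1:**
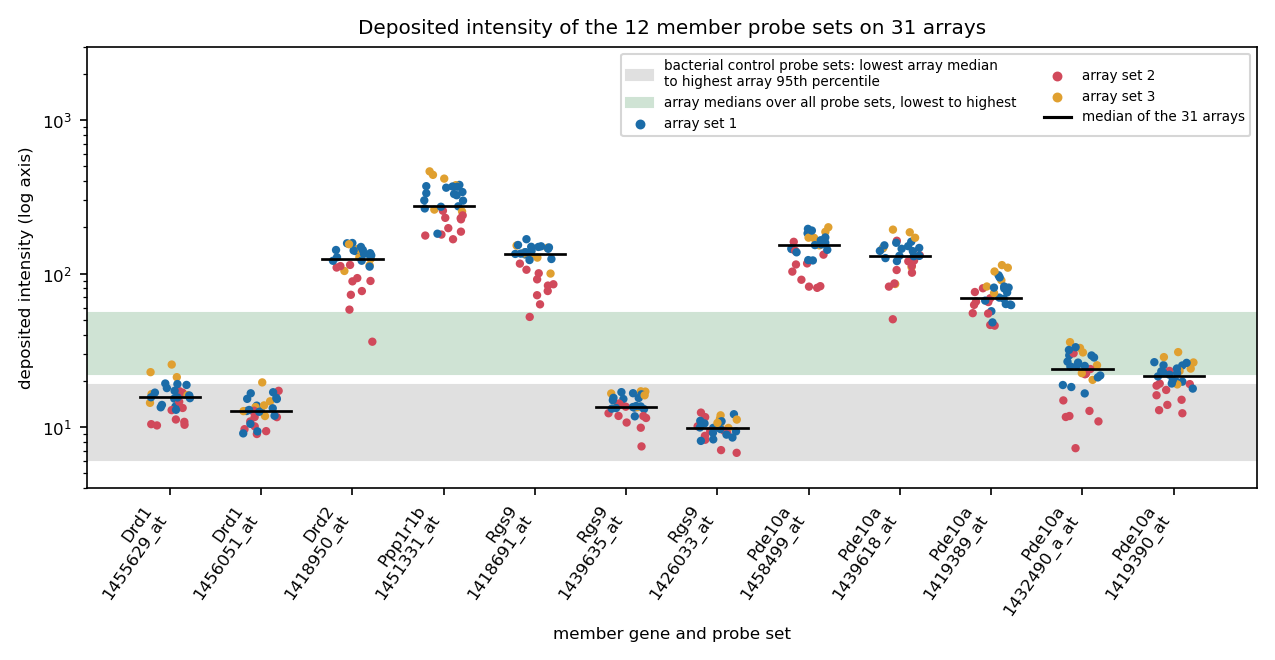
Deposited intensity of each of the 12 probe sets (log axis, array units) on the 31 arrays, 1 point per array coloured by array set, with a bar at the median. The grey band runs from the lowest array median of the bacterial controls to their highest array 95th percentile and the green band covers the array medians of 22.2 to 55.4: Drd2, Ppp1r1b, 1 Rgs9 and 3 Pde10a probe sets have medians above both bands, while both Drd1 probe sets have medians inside the grey one.

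The 5 measured genes, each at its probe set of highest mean, had a median percentile of 66.9, close to the 65.1 of all 18193 genes with a symbol. Against this, 19 other genes known from medium spiny neurons had a median percentile of 80.2, and 16 of them lay over the 50th. Penk (the enkephalin precursor of the indirect pathway) averaged 2297 ± 647, Pde1b (a phosphodiesterase) 912 ± 267, Tac1 (the substance P precursor of the direct pathway) 789 ± 282 and Gnal (the stimulatory G protein alpha subunit of these neurons) 715 ± 182 (SD, n = 31 for each). The 3 genes under the 50th percentile were Pdyn (the dynorphin precursor) at 30.8 ± 4.26, Six3 (a transcription factor of the developing striatum) at 22.6 ± 5.31 and Gpr6 (an orphan receptor of the indirect pathway) at 13.3 ± 2.34. Most of these list genes are also known outside the striatum.

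Genes close to the members in family or binding lay on both sides of the 50th percentile. The receptor relatives Drd3, Drd4 and Adora3 averaged 8.56 ± 1.48, 15.4 ± 3.85 and 20.1 ± 4.43, all under the 50th percentile (SD, n = 31 for each). Of 15 paralogs and binding partners, 13 lay over the 50th percentile, with a median percentile of 75.8. Among the partners of Rgs9, Gnb5, the G protein beta subunit that it binds, averaged 608 ± 167, Rgs7bp, a membrane anchor, 1785 ± 719, and Rgs9bp, the anchor known from the retina, 13.8 ± 2.75. Ppp1ca, the catalytic subunit of protein phosphatase 1, averaged 2009 ± 599.

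Genes that mark other regions of the nervous system were read beside the members. Of 6 forebrain projection neuron genes, 4 lay under the 50th percentile: Tbr1 at 7.10 ± 0.74, Neurod6 at 13.0 ± 1.87, Slc17a7 at 16.3 ± 3.61 and Emx1 at 26.5 ± 7.53 (SD, n = 31). The exceptions were Lamp5 at 4844 ± 1441 and Rtn4r at 84.0 ± 25.9. Of 9 spinal cord and hindbrain genes, 8 lay over the 50th percentile, with a median percentile of 93.1, led by Slc17a6 (a vesicular glutamate transporter) at 2608 ± 814, Glra1 (a glycine receptor subunit) at 2138 ± 597, Slc6a5 (the glycine transporter of inhibitory neurons) at 1808 ± 618 and the axial patterning gene Hoxa5 at 1050.2 ± 314. Of 5 dopamine neuron genes, 3 lay under the 50th percentile. Slc6a3 (the dopamine transporter) and Slc18a2 (the vesicular monoamine transporter) were near background at 14.3 ± 2.98 and 13.0 ± 2.12. Pitx3 averaged 16.1 ± 3.66. Th (tyrosine hydroxylase) at 56.4 ± 16.1 and Nr4a2 at 59.5 ± 13.95 lay over the 50th percentile. These lists point in more than 1 direction. Of the 5 measured members, each at its brightest probe set, 4 lay over the 50th percentile and Drd1 under it. Under it lay 4 of 6 forebrain genes and 6 of 8 cerebellar genes. Cbln1 and Car8 were the cerebellar genes over it. Over it lay 8 of 9 spinal cord and hindbrain genes and 4 of 6 motor neuron genes. So did 16 of 19 other medium spiny neuron genes, Penk, Tac1 and Gnal among them, and Lamp5. The cell source of the member signals was not tested, and the members are called by their gene names. In bulk RNA, fewer cells of a type and less RNA per cell cannot be told apart.

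**Figure D2:**
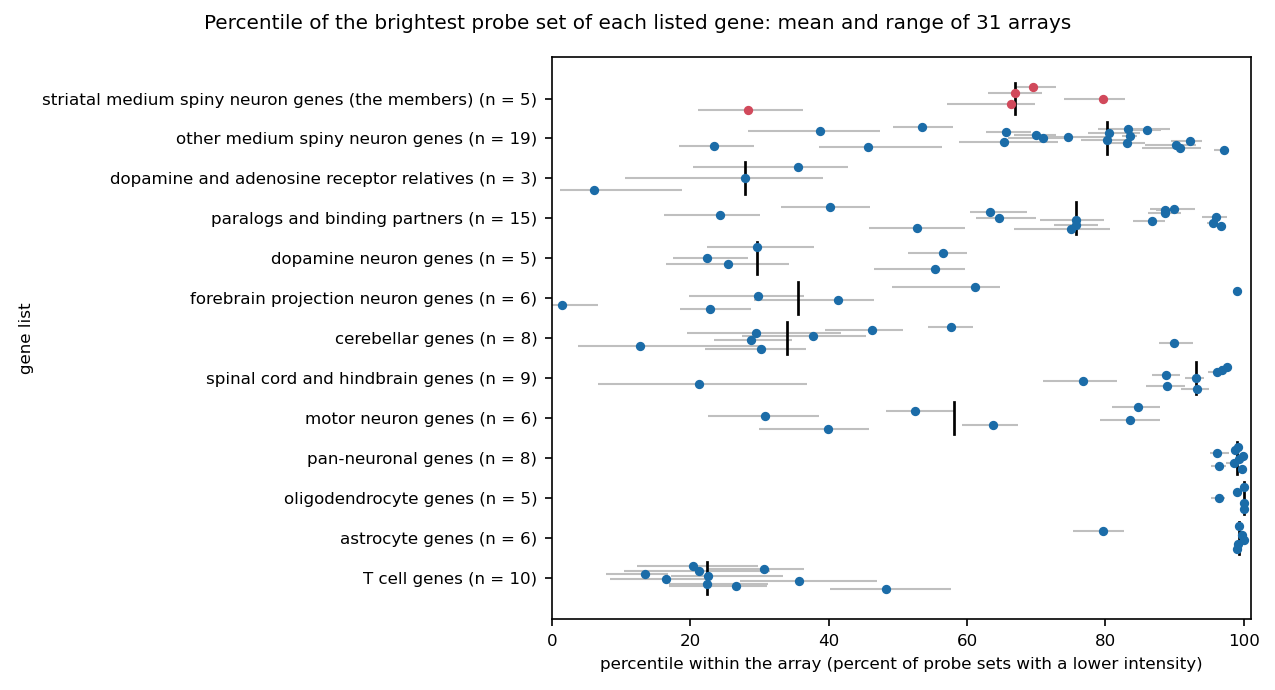
Percentile within the array (percent of probe sets with a lower intensity) of each listed gene, at its probe set of highest mean: points are means over the 31 arrays, grey lines the lowest to highest array, and bars list medians, with the members in red. The members' median of 66.9 lies below the 93.1 of the spinal cord and hindbrain genes and above the 22.5 of the T cell genes, and Drd1 is the member on the left.

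To compare groups, the deposited intensities were quantile normalised, and 24670 probe sets that lay above the median of the table on at least 2 arrays were fitted with limma over all 31 arrays. Of the 12 member probe sets, 6 passed this filter: those of Drd2 and Ppp1r1b, Rgs9 1418691_at and Pde10a 1458499_at, 1439618_at and 1419389_at. Each of the 6 was above that median on all 31 arrays. Levels in this and the next paragraphs are normalised intensities, and differences are on the log2(intensity + 16) scale, which understates the change of low values.

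No member probe set was called over the label groups. Over the 10 groups, 0 of the 6 probe sets passed an adjusted p of 0.05 in limma's F test, where 12.4% of all tested probe sets did. An unadjusted p under 0.05 was found for 0 of the 6 and for 29.8% of all tested probe sets. With 6 probe sets and few arrays per group, the absence of calls does not show that differences were small or set the members apart. Adjusted p ran from 0.233 for Ppp1r1b to 0.95 for Pde10a 1458499_at. From lowest to highest array, the normalised level varied by 2.38-fold for Drd2, 1.85-fold for Ppp1r1b, 1.71-fold for Rgs9, and 1.498-fold, 2.28-fold and 1.91-fold for Pde10a 1458499_at, 1439618_at and 1419389_at.

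Drd2 was 131 and 114 on IL-2 induced Foxp3-delta, 128 and 113 on IL-2 induced Treg, 107, 103 and 129.7 on induced Foxp3-delta, and 133, 125, 97.0, 91.8 and 119.9 on induced Treg arrays. It was 116, 147 and 123 on failed induced Treg, 61.8, 138 and 98.3 on activated natural Treg, and 114, 134, 109 and 118 on activated T arrays. On the unstimulated arrays it was 115 and 97.9 for natural Foxp3-delta, 133, 140.2, 123 and 133 for natural Treg, and 127, 122 and 118 for conventional T. The lowest value was that of activated natural Treg array 1, and another array of that group was among the highest. Ordered by mean, the groups ran from activated natural Treg (99.3 ± 38.1, n = 3) to natural Treg (132 ± 7.25, n = 4; SD), and neighbours in this order differed by less than their spread.

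Ppp1r1b was 347 and 362 on IL-2 induced Foxp3-delta, 196 and 293 on IL-2 induced Treg, 306, 335 and 255 on induced Foxp3-delta, and 260.2, 265, 228, 315 and 250.4 on induced Treg arrays. It was 331, 315 and 279 on failed induced Treg, 314, 254 and 253 on activated natural Treg, and 226, 329, 328 and 272 on activated T arrays. Natural Foxp3-delta arrays had 301 and 233, natural Treg arrays 257, 352, 274 and 339, and conventional T arrays 333, 364 and 319.8. The lowest and the highest group mean belonged to groups of few arrays, IL-2 induced Treg (244 ± 68.2, n = 2) and IL-2 induced Foxp3-delta (355 ± 10.7, n = 2; SD), and the difference between these was not among those tested.

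Rgs9 1418691_at was 149 and 129.6 on IL-2 induced Foxp3-delta, 129 and 159 on IL-2 induced Treg, 109, 115 and 120.5 on induced Foxp3-delta, and 124, 122, 93.4, 97.2 and 124 on induced Treg arrays. It was 144, 138 and 103 on failed induced Treg, 92.6, 111 and 133 on activated natural Treg, and 121, 117, 118 and 108 on activated T arrays. Among unstimulated cells it was 113 and 106 on natural Foxp3-delta, 138, 118, 130.1 and 123 on natural Treg, and 119, 134 and 124 on conventional T arrays. The highest group means were those of IL-2 induced Treg (144 ± 20.6, n = 2) and IL-2 induced Foxp3-delta (139 ± 13.99, n = 2; SD). The lowest was that of natural Foxp3-delta (109.9 ± 4.90, n = 2).

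Group means of Pde10a ranged from 136 ± 11.8 (failed induced Treg, n = 3) to 158 ± 8.57 (IL-2 induced Foxp3-delta, n = 2) for 1458499_at. For 1439618_at they ranged from 121 ± 25.8 (induced Treg, n = 5) to 147 ± 31.9 (failed induced Treg, n = 3). For 1419389_at the range was from 60.0 ± 12.7 (IL-2 induced Treg, n = 2) to 86.2 ± 7.84 (activated T, n = 4; SD throughout). No group was highest on more than 1 of the 3, and failed induced Treg was lowest on 1 and highest on another.

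**Figure D3:**
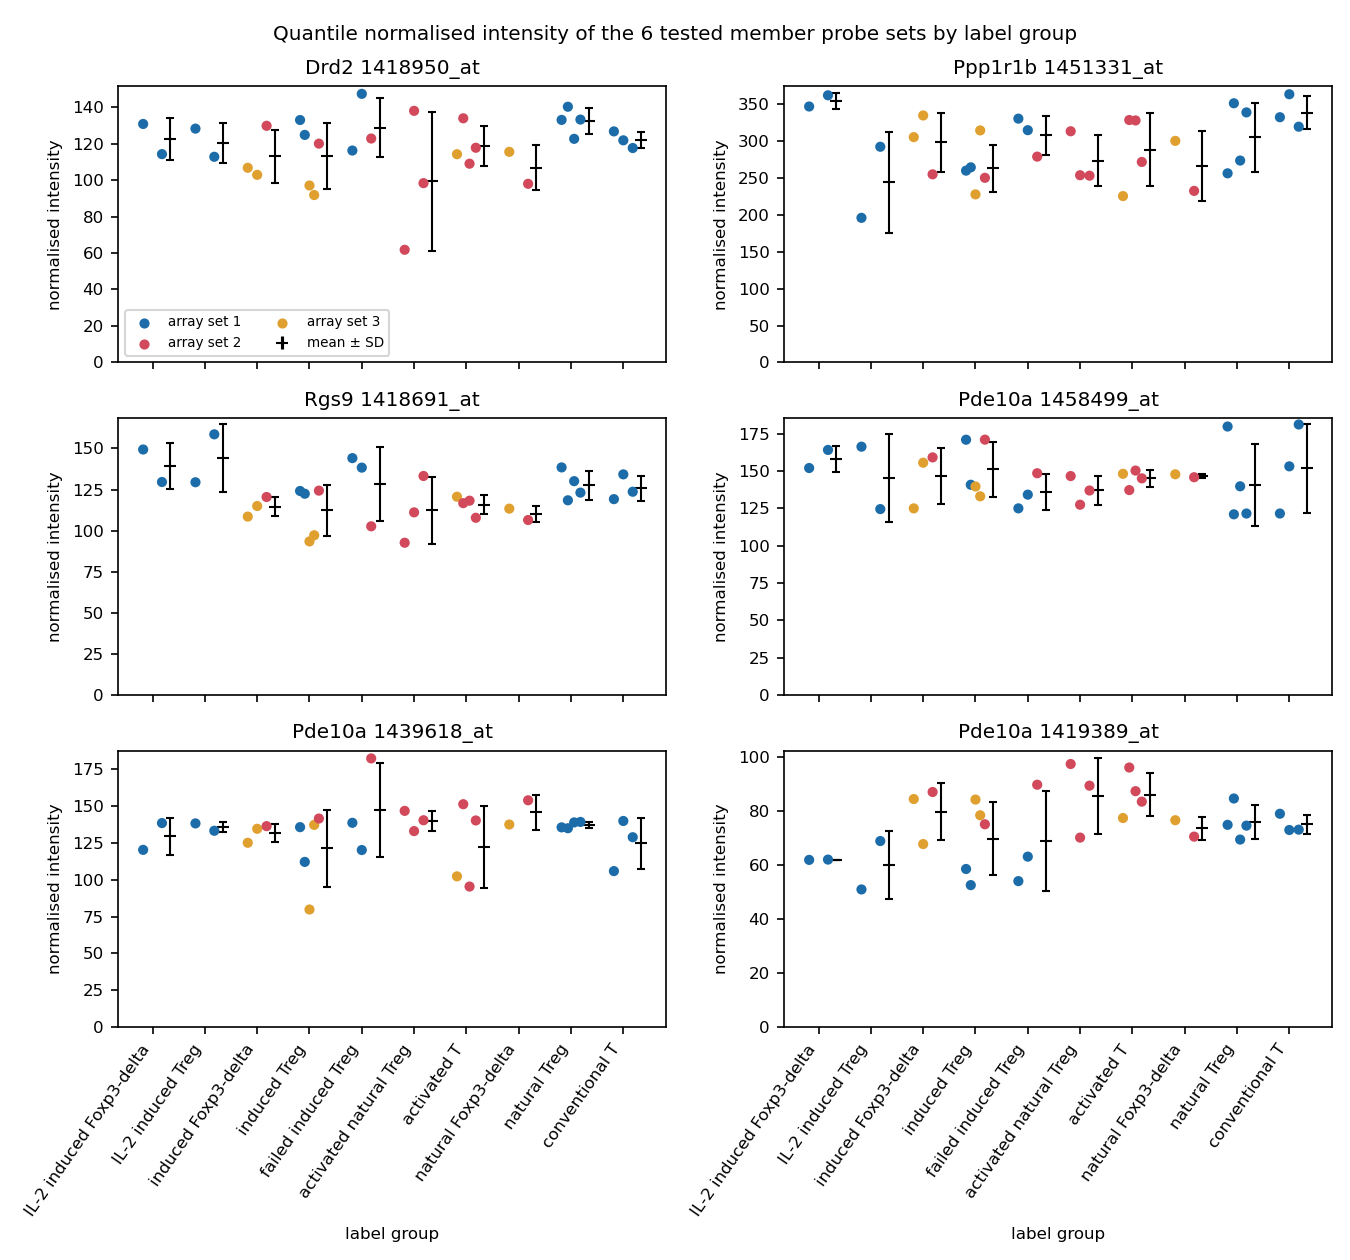
Quantile normalised intensity (array units, axes from 0) of the 6 tested probe sets in the 10 label groups, 1 point per array coloured by array set, with the mean and SD beside them. Among the 8 comparisons the groups overlap except for Drd2 and Rgs9 between natural Treg and natural Foxp3-delta and for Rgs9 between IL-2 induced Treg and induced Treg, and Drd2 on the activated natural Treg arrays runs from 61.8 to 138.

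The first comparisons set arrays labelled with induction, activation with TGF-beta, against arrays labelled with activation alone; given the doubt about the labels, they are not read as an effect of TGF-beta. Between induced Treg and activated T, 0 of 6 member probe sets passed an adjusted p of 0.05 in limma, where 0.0567% of all tested probe sets did, and 1 had an unadjusted p under 0.05. It was Pde10a 1419389_at, which was 58.6, 52.7, 84.3, 78.5 and 75.2 on induced Treg arrays against 77.5, 96.2, 87.5 and 83.6 on activated T arrays. The groups overlapped, and the log2 difference was -0.26 (SE 0.12, limma adjusted p = 0.432). The other Pde10a probe sets gave 0.05 and -0.01, and the sign of the Pde10a difference depended on the probe set. With array set as a block, the difference of 1419389_at was -0.07 (adjusted p = 0.921).

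Failed induced Treg set against the same activated T arrays gave 0 of 6 calls, where 0.0365% of all tested probe sets were called, and 1 probe set with an unadjusted limma p under 0.05. Again it was Pde10a 1419389_at, at 54.1, 63.2 and 89.8 on failed induced Treg arrays, which overlapped those of activated T (log2 difference -0.28, SE 0.13, limma adjusted p = 0.352). With array set as a block it was 0.02 (adjusted p = 0.974). Both comparisons share their activated T arrays. Pde10a 1439618_at differed the other way, by 0.24 (SE 0.15, adjusted p = 0.488).

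Arrays labelled Foxp3-delta, for the mutant Foxp3 allele, were compared with arrays labelled Treg for induced and for native cells. With the labels of induced cells, 0 of 6 member probe sets were called by limma and 0 had an unadjusted p under 0.05, with 0% called among all tested probe sets. Pde10a 1419389_at, with the smallest p, was 84.5, 67.9 and 87.1 on induced Foxp3-delta arrays against the 5 induced Treg values above, and the log2 difference, induced Treg minus induced Foxp3-delta, was -0.17 (SE 0.13, limma adjusted p = 1.00). Drd2 averaged 113 in both groups, and its difference of -0.0037 had a 95% interval from -0.29 to 0.28.

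With the labels of native cells, Drd2 and Rgs9 were lower on both natural Foxp3-delta arrays than on any of the 4 natural Treg arrays, but 0 of 6 member probe sets were called, where 0.0892% of all tested probe sets were, and 0 had an unadjusted limma p under 0.05. For Drd2 the log2 difference, natural Treg minus natural Foxp3-delta, was 0.28 (SE 0.17, limma adjusted p = 0.44). For Rgs9 it was 0.19 (SE 0.13, adjusted p = 0.487). With 2 arrays against 4, groups that do not overlap were common: 29.9% of all tested probe sets showed this. The natural Foxp3-delta arrays fell in array sets 2 and 3 and all natural Treg arrays in set 1, so array set and label cannot be told apart within this comparison. With array set as a block, estimated from the other groups, the Drd2 difference was 0.05 (limma adjusted p = 0.991). The ratio of the 3′ to the 5′ actin control probe set, a sign of RNA quality, was 1.71 and 2.19 on natural Foxp3-delta arrays 1 and 2. It was 1.84, 1.81, 1.73 and 1.79 on natural Treg arrays, and its part in the differences was not tested.

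The allele difference in induced cells minus that in native cells was tested as an interaction, and 0 of 6 member probe sets and 0% of all tested probe sets passed in limma, with 0 members at an unadjusted p under 0.05. Its smallest p belonged to Ppp1r1b (-0.35, SE 0.21, adjusted p = 0.974).

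Activated natural Treg against natural Treg, by label, gave the smallest member p. Drd2 was 61.8, 138 and 98.3 on activated natural Treg arrays against 133, 140.2, 123 and 133 on natural Treg arrays. On 2 of the 3 activated arrays it lay below every natural Treg array and on the other it lay within them. The log2 difference was -0.42 (SE 0.15, 95% interval -0.72 to -0.11), with a limma adjusted p of 0.0542, just outside the threshold. With activated natural Treg array 2 left out, the difference was -0.65 (adjusted p = 0.00618), and with array 1 left out it was -0.16 (adjusted p = 0.46). With the arrays scaled to a common median in place of quantile normalisation it was -0.45 (adjusted p = 0.0368). A sign of RNA quality moved with the groups: the ratio of the 3′ to the 5′ actin control probe set was 2.05, 2.08 and 2.13 on activated natural Treg arrays against 1.84, 1.81, 1.73 and 1.79 on natural Treg arrays, with no overlap, and its part in the difference was not tested.

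Of the 6 member probe sets, 0 were called in this comparison, where 15.6% of all tested probe sets were, and 1, that of Drd2, had an unadjusted limma p under 0.05. Ppp1r1b and Rgs9 differed by -0.14 (SE 0.14, adjusted p = 0.522) and -0.17 (SE 0.11, adjusted p = 0.301), and the 3 Pde10a probe sets by -0.02 to 0.14. The dim Pde10a probe set 1432490_a_at, below the filter, was 9.46, 14.8 and 15.2 on activated natural Treg arrays against 24.4, 28.9, 18.8 and 25.4 on natural Treg arrays, which did not overlap. The groups failed to overlap for 29.1% of all tested probe sets, a share that leaves out dim probe sets such as this one. In a fit with no filter on low values, 1432490_a_at had a log2 difference of -0.47 (SE 0.12, limma adjusted p = 0.0139), where 9.74% of all probe sets were called. On activated natural Treg array 1 its deposited intensity of 7.27 lay under that array's 95th percentile of the bacterial controls, 9.89. All activated natural Treg arrays fell in array set 2 and all natural Treg arrays in set 1, so label and array set cannot be told apart here. With array set as a block, estimated from the other groups, the Drd2 difference was -0.26 (adjusted p = 0.643).

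Between activated T and conventional T, 0 of 6 member probe sets were called by limma and 0 had an unadjusted p under 0.05, where 6.17% of all tested probe sets were called. Ppp1r1b had the smallest p, at 226, 329, 328 and 272 on activated T arrays against 333, 364 and 319.8 on conventional T arrays, which overlapped (log2 difference -0.23, SE 0.14, adjusted p = 0.331). With array set as a block it was -0.15 (adjusted p = 0.866). No activated T array shared an array set with a conventional T array, so label and array set cannot be told apart here either. The actin ratio was 1.62 to 1.99 on activated T arrays and 1.79 to 1.80 on conventional T arrays, which overlapped. Drd2 differed by -0.04 here (95% interval -0.34 to 0.26). The difference between activated natural Treg and natural Treg minus that between activated T and conventional T was tested as an interaction. By label, activated natural Treg were stimulated with TGF-beta and activated T without it, so cell type and TGF-beta cannot be told apart in it. In limma, 0 of 6 member probe sets and 0% of all tested probe sets were called, and 0 members had an unadjusted p under 0.05. Drd2 had the smallest p (-0.38, SE 0.21, limma adjusted p = 0.718). The other known medium spiny neuron genes moved both ways in these comparisons, as given next.

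Of 41 tested probe sets of 17 other medium spiny neuron genes, 4 were called higher and 3 lower on activated natural Treg than on natural Treg arrays by limma. Higher was 1 probe set each of Arpp21, a cyclic AMP regulated phosphoprotein (0.73, SE 0.19, adjusted p = 0.0112), Pdyn (0.49), Adcy5, the adenylyl cyclase of striatal neurons (0.46), and the transcription factor Bcl11b (0.25). The array holds 5 probe sets for Arpp21 and 4 each for Adcy5 and Bcl11b, and the rest of these were not called. For Arpp21 and Adcy5 the called probe set was not the gene's brightest. Lower were Pde1b (-0.44, SE 0.12, adjusted p = 0.015) and 2 of the 8 probe sets of the transcription factor Foxp1 (-0.36 and -0.44). These 7 of 41 stand beside the 15.6% called among all tested probe sets, and the list's median difference was -0.02, against -0.00084 for all of them. Of 22 probe sets of paralogs and binding partners, 1 was called higher and 3 lower, and 2 probe sets of the phosphodiesterase Pde2a were called in opposite directions (0.41 and -0.43). On activated T against conventional T arrays, Pdyn was called higher (0.55, SE 0.15) and 1 of the 4 probe sets of Rasgrp2, an exchange factor for Rap proteins, lower (-0.49, SE 0.12). With array set as a block, 20 probe sets in all were called in that comparison, in place of 1523.

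Markers of other cell types were called in the same comparisons. On activated natural Treg arrays, 2 of 18 oligodendrocyte probe sets were called higher and 1 lower (Cnp 0.38, Mbp 0.50 and, by another probe set, -0.30), and 1 of 17 astrocyte probe sets was called lower (Gfap -0.43). On activated T arrays, the neuronal gene Rbfox3 was called lower (-0.70; 1 of 18 pan-neuronal probe sets) and the astrocyte gene Slc1a3 higher (0.56; 1 of 17). Among all tested probe sets, 15.6% were called in the activated natural Treg comparison and 6.17% in the activated T comparison. The marker counts were near or below those shares, so they do not set these cell types apart. The summed deposited intensity over all 31 arrays ranged from 35685 to 84084 for the oligodendrocyte list, 23066 to 67400.5 for the astrocyte list and 26197 to 75914 for the pan-neuronal list. Cd3e, the only T cell gene bright enough to be tested, was called higher in both comparisons (0.59 and 0.81), at a deposited intensity of 36.8 ± 12.2 (SD, n = 31). The part of these markers in the member values was not tested.

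Natural Treg and conventional T arrays, both unstimulated and all in array set 1, gave 0 of 6 member calls in limma and 0 at an unadjusted p under 0.05, where 0.00405% of all tested probe sets were called. The smallest p was that of Ppp1r1b, at 257, 352, 274 and 339 on natural Treg arrays against 333, 364 and 319.8 on conventional T arrays (log2 difference -0.15, SE 0.14, adjusted p = 1.00). Drd2 differed by 0.10 (95% interval -0.20 to 0.40) and Rgs9 by 0.02 (-0.21 to 0.24).

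After the further week in IL-2, Rgs9 was 129 and 159 on IL-2 induced Treg arrays against 124, 122, 93.4, 97.2 and 124 on induced Treg arrays. Both IL-2 arrays lay above all 5 others, and the 2 groups failed to overlap for 23.8% of all tested probe sets. The log2 difference was 0.32 (SE 0.12, 95% interval 0.07 to 0.57, limma adjusted p = 0.177), so 0 of 6 member probe sets were called, where 1.78% of all tested probe sets were, and 1 had an unadjusted p under 0.05. Within array set 1, which held both IL-2 arrays and 2 of the induced Treg arrays, the difference was 0.19, and with array set as a block it was 0.15 (adjusted p = 0.633). Rgs6, a paralog of Rgs9 and another regulator of G protein signalling, was called higher (0.57, SE 0.14, adjusted p = 0.0299), the only call among 22 probe sets of paralogs and binding partners. The astrocyte gene Slc1a3 was also called higher (0.62, SE 0.12, adjusted p = 0.0103; 1 of 17 astrocyte probe sets), and its part in these differences was not tested.

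**Figure D4:**
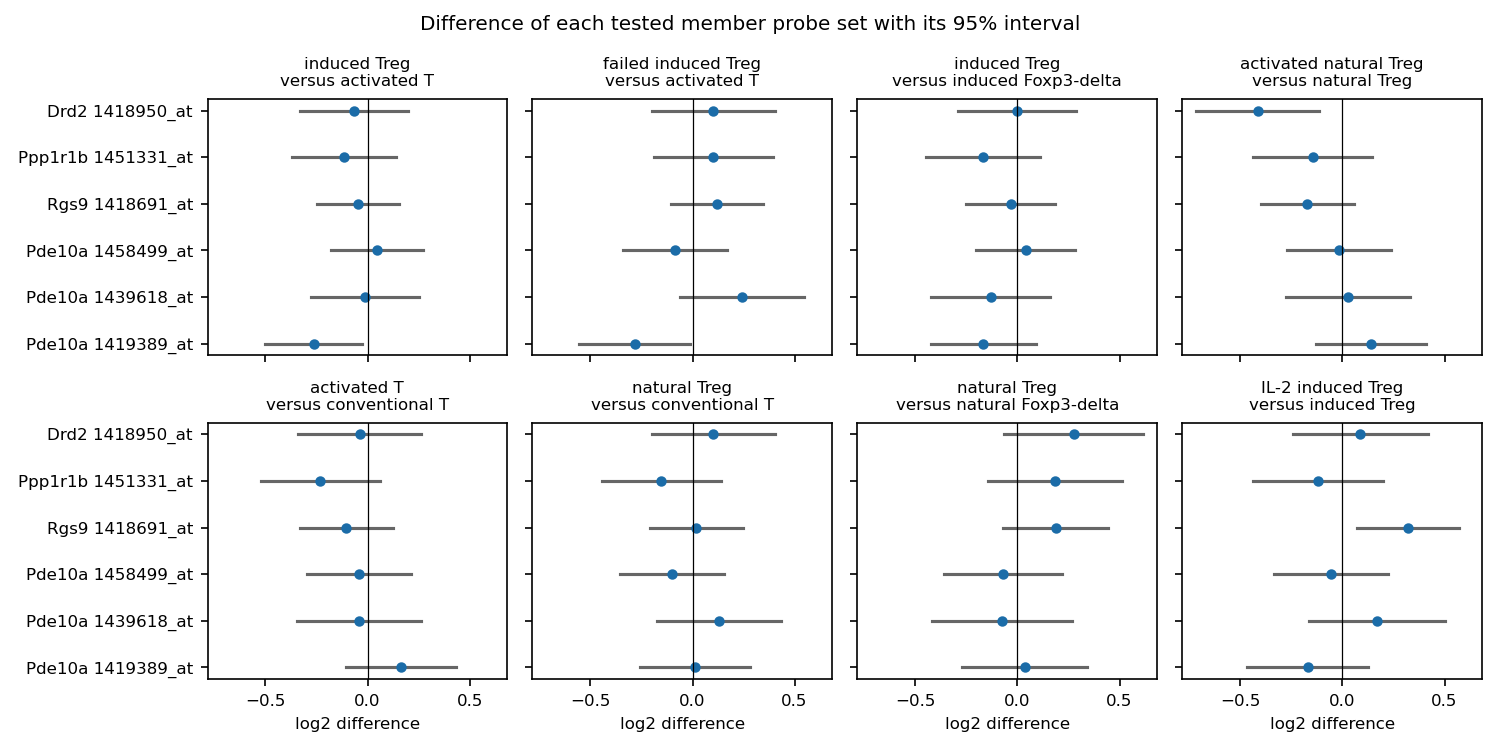
Log2 difference (first-named group minus second) of the 6 tested probe sets in the 8 comparisons between groups, with 95% intervals from limma. Intervals clear of 0 are those of Pde10a 1419389_at in induced Treg and failed induced Treg against activated T, of Drd2 in activated natural Treg against natural Treg (-0.72 to -0.11) and of Rgs9 in IL-2 induced Treg against induced Treg (0.07 to 0.57), and none passed after adjustment over all tested probe sets.

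Beside the labels, the array sets moved with some members. The sets were found from these arrays and are no groups of the study, so their values are a description. Rgs9 1418691_at averaged 132 ± 11.7 in set 1 (15 arrays), 113 ± 11.7 in set 2 (10 arrays) and 108 ± 10.7 in set 3 (6 arrays; normalised intensity, SD). Drd2 averaged 127 ± 9.75, 113 ± 22.6 and 105 ± 9.37 in sets 1, 2 and 3, and Pde10a 1419389_at was lowest in set 1, at 66.8 ± 10.1, 84.7 ± 9.76 and 78.2 ± 6.13. Array set accounted for 48.8% of the variance of Rgs9, 43.7% of that of Pde10a 1419389_at and 25.2% of that of Drd2, against 8.49% for Ppp1r1b and 1.24% for Pde10a 1458499_at, with a median of 23.4% over all tested probe sets and a share of 6.67% where sets do not differ. Label group, with more groups to fit, accounted for 13.8% to 43.3% for the members and a median of 40.5% over all tested probe sets, against 30% where groups do not differ. Pde10a 1458499_at (13.8%) and 1439618_at (23.3%) were under that share.

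Member probe sets were at most moderately correlated across all arrays, and the values differed between array sets. Over the 31 arrays, which share array sets and normalisation, the correlation of log2 values between member probe sets was highest for Drd2 and Rgs9 (Pearson r = 0.53) and lowest for Rgs9 and Pde10a 1419389_at (r = -0.54). For Drd2 and Rgs9 it was -0.28 within array set 1, 0.48 within set 2 and 0.84 within set 3. For Ppp1r1b and Pde10a 1419389_at it was 0.11 over all arrays, 0.50 within set 1, 0.75 within set 2 and -0.48 within set 3. The 3 tested Pde10a probe sets, which read 1 gene, had correlations of 0.12, -0.17 and 0.05 with each other, so most of their variation between arrays was not shared.

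The genes whose pattern over the 31 arrays was most like that of Drd2 were Armcx3 (Pearson r = 0.85), Strn (0.81) and Gnal (0.79). By ranks these were lower, with a Spearman rho of 0.73, 0.67 and 0.66. Within array sets 1, 2 and 3, the Pearson correlation with Gnal was 0.44, 0.92 and 0.68, that with Armcx3 0.36, 0.88 and 0.88, and that with Strn 0.50, 0.82 and 0.21. For Rgs9 1418691_at the most similar genes were Ywhag (Pearson r = 0.77), Prps2 (0.77) and Aqr (0.76), and each was weaker within set 1, at 0.53, 0.29 and 0.26. Ppp1r1b reached 0.59 with Samd4, 0.58 with Rbx1 and 0.58 with Xylt2, and Pde10a 1458499_at reached 0.57 with each of Onecut2, Lrrc4 and Wdr54. Drd1 1455629_at, near background, still reached 0.68 with Srsf4, 0.67 with Exoc2 and 0.66 with Tmub2, so values of this size arose for a gene with little signal when the most similar of all tested genes were picked.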

How the data were processed

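Total RNA of 31 samples in 10 label groups was hybridised to 1 mouse expression array each. The deposited table holds 1 linear intensity per probe set and array, judged from its values. The probe summary, background correction and array scaling used by the authors are not given in the sources used here. Of 45101 probe sets, 34958 carried 1 gene symbol in the platform annotation, 932 several, which were not named, and 9211 none that was listed; 64 were controls. Percentiles were taken within each array. For tests, intensities were quantile normalised, 16 was added before log2, and probe sets above the median of the table (39.8) on at least 2 arrays were fitted with limma 3.58.1 (R 4.3.3), with 1 term per label group, all 31 arrays in 1 fit, and Benjamini-Hochberg adjustment over the 24670 probe sets tested (threshold 0.05). The fit was tested on simulated data. Array sets came from hierarchical clustering of array-wide brightness and control values. The number of arrays limits the precision.

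The members and gene lists were chosen with earlier results of these data known. Every member probe set is named with its level; differences are given for called members and otherwise for the member with the smallest p, plus some others with their intervals; list genes are named with their levels or where called; and the 3 genes most correlated with each member's brightest probe set are named. The alternatives were the deposited scale, median scaling, pseudocounts of 1 and 64, no filter, 2 other summaries per gene, array set or replicate number as a block, fits on the compared groups alone, and leaving out each array. Same-numbered samples of different groups did not deviate together (114 pairs, correlations from -0.30 to 0.39, 13 of them over 0.1), so replicate numbers were not treated as pairs. No genome of the array's build was used, so no coordinates are given.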

Additional observations from a re-analysis of the deposited data

How the results depend on the processing

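Normalisation decided most member calls. On the deposited scale, without normalisation, limma called 5 of 6 member probe sets over all label groups (53.7% of all tested), 4 between induced Treg and activated T (all higher; 62.6% of all, whose median difference was 0.45), 6 between activated natural Treg and natural Treg (all lower; 62.9%, median -0.53) and 3 between activated T and conventional T (all lower; 23.7%, median -0.39). These directions are those of the median difference over all probe sets. Between activated natural Treg and natural Treg, 1 member was called with arrays scaled to a common median (Drd2; 20.7% of all) and 1 with no filter (Pde10a 1432490_a_at). Leaving out each array in turn gave 0 to 1 calls in that comparison, the 1 being Drd2 without activated natural Treg replicate 2, and 0 in the other 10. The difference of Pde10a 1419389_at turned positive on the deposited scale (0.22 for induced Treg and 0.13 for failed induced Treg against activated T), with the brightest Pde10a probe set in its place (0.046 against activated T and 0.040 against induced Foxp3-delta, for induced Treg), with the mean of the probe sets (0.012 for failed induced Treg) and with array set as a block (0.016 for failed induced Treg against activated T and 0.0056 for induced Treg against induced Foxp3-delta); apart from the deposited scale and the other probe sets, the cause was not tested. Deposited levels within 1 array set moved by more than 1 SD for Drd1 1455629_at (19.4 in set 3), Pde10a 1419389_at (95.5 in set 3), Drd2 (85.1 in set 2), Ppp1r1b (209 in set 2), Rgs9 1418691_at (84.7 in set 2) and Pde10a 1458499_at (110.5 in set 2). With the replicate number as a block, 0 member probe sets were called in the 11 tests, while all calls numbered 835 in place of 22 for natural Treg against natural Foxp3-delta, 143 in place of 440 for the IL-2 comparison and 33 in place of 14 for induced Treg against activated T. Over all settings but leaving out arrays, the calls among all probe sets ranged from 254 to 13786 over all groups (3052 in the fit reported), 49 to 16146 (3846) for activated natural Treg against natural Treg, 20 to 6600 (1523) for activated T against conventional T, 2 to 16075 (14) and 0 to 158 (9) for induced Treg and failed induced Treg against activated T, 0 to 1903 (22) for natural Treg against natural Foxp3-delta, 0 to 807 (440) for the IL-2 comparison and 0 to 6 (1) for natural Treg against conventional T. The lowest counts for all groups and for both stimulation comparisons came with array set as a block. Leaving out 1 array moved the calls among all probe sets to 1954 to 4255 over all groups (lowest without IL-2 induced Treg replicate 2), 2178 to 4446 for activated natural Treg against natural Treg (lowest without activated natural Treg replicate 1), 227 to 2266 for activated T against conventional T (lowest without conventional T replicate 2), and 11 to 556 for the IL-2 comparison (lowest without IL-2 induced Treg replicate 1). It moved them to 0 to 206 and 0 to 139 for induced Treg and failed induced Treg against activated T (both highest without activated T replicate 1), 0 to 320 for natural Treg against natural Foxp3-delta (highest without natural Foxp3-delta replicate 1), 0 to 2 and 0 to 33 for the allele and stimulation interactions, and 0 to 1 for natural Treg against conventional T, so the shares printed beside the member counts move likewise. Both Drd1 probe sets and Rgs9 1439635_at and 1426033_at lay within the 95th percentile of the bacterial controls on some arrays, which limits what their values can show. The same holds for Pde10a 1432490_a_at on activated natural Treg array 1.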
